A study of Mus musculus with 4 samples.

Results

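The 10 genes described here, Dusp1, Dusp2, Dusp4, Dusp5, Dusp6, Dusp10, Spry1, Spry2, Spred1 and Rcan1, encode inhibitors that activated cells make against the signalling that induced them. They were taken by symbol from the 25509 genes of the count table, and each symbol matched 1 row. The libraries came from mouse splenic CD4+ T cells that were naive when sorted and then spent 72 h in culture with TGF-beta, IL-4, TL1A and stimulating antibodies against CD3 and CD28, the TH9 state of helper T cells with a TNF-family cytokine added. There were 2 libraries from Batf3-/- cells, which lack the AP-1 family transcription factor BATF3, and 2 from wild-type (WT) cells given the same cytokines and antibodies. All cultures were stimulated, so the basal level of these genes before stimulation was not measured. The labels leave the Batf3 allele undescribed, and nothing in them says that replicates are separate animals or cultures, so p-values measure the spread between these 4 libraries only.

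Mitogen-activated protein (MAP) kinases carry signals from the T cell receptor and cytokine receptors to the nucleus through phosphate groups on a threonine and a tyrosine of the kinase. Dual specificity phosphatases of the DUSP family remove both groups, and many DUSP genes are themselves switched on by the kinases they inactivate. Sprouty and SPRED proteins act higher up, where they limit the activation of RAS and RAF. RCAN1 works on another branch: it binds and inhibits calcineurin, the calcium-dependent phosphatase that activates NFAT, and transcription of a short Rcan1 form is itself driven by NFAT.

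Total counts were 31098059 and 15624874 in Batf3-/- replicates 1 and 2 and 23754946 and 27285811 in WT replicates 1 and 2. Batf3 had 17 and 8 counts in the Batf3-/- libraries, against 1439 and 1661 in the WT libraries. Cd4 was abundant in all 4 libraries, with 16834 and 8287 counts in Batf3-/- cells and 12892 and 13006 in WT cells. Defining markers of other leukocytes, Ms4a1 of B cells, Lyz2 and Tyrobp of myeloid cells, Ncr1 of NK cells and Cpa3 of mast cells, had 0 counts in every library. Other genes on the same marker lists were detected: Cd79b had 317 and 189 counts in Batf3-/- cells and 306 and 264 in WT cells, Ebf1 had 439 and 210 in Batf3-/- cells and 299 and 471 in WT cells, and Cd8b1 had 233 and 112 in Batf3-/- cells and 208 and 228 in WT cells. Cst3 had 1695 and 779 counts in Batf3-/- cells and 1073 and 1381 in WT cells, and Kit had 55 and 71 in Batf3-/- cells and 102 and 61 in WT cells. The summed level of the B cell list was 24.5 and 25.6 CPM in Batf3-/- cells and 25.5 and 27.2 CPM in WT cells, and the part of such genes in the results was not tested. A count of 0 allows up to 3 counts, or 0.0965 to 0.192 CPM (counts scaled to library size) depending on the library, for counting error only. Xist was at 0.0944 CPM in Batf3-/- replicate 1 and 0.214 CPM in WT replicate 1, against 144 CPM in Batf3-/- replicate 2 and 166 CPM in WT replicate 2, so the replicate numbers differ in this X-linked RNA in both genotypes, and values are also given within each number.

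The bases before the transcription start are shown for Rcan1, Dusp1 and Dusp5, whose windows hold the letters of stimulus-responsive elements. They are from RefSeq on GRCm38.p6 and run 5′ to 3′ on the gene's strand, 250 bases ending just before the annotated start. Rcan1 has 2 annotated starts in that table, and the count table gives 1 value for both together. Capitals mark the motifs TGANTCA (the AP-1 type that BATF and JUN proteins bind as pairs), TGACGTCA (the cyclic AMP response element, CRE), GGAAAA (a core letter string of NFAT sites) and the CArG box (the element of serum response factor), each searched on both strands; the first Rcan1 window holds none of them and is shown for contrast with the second.
Rcan1 first start, chr16:92466170-92466419, minus strand: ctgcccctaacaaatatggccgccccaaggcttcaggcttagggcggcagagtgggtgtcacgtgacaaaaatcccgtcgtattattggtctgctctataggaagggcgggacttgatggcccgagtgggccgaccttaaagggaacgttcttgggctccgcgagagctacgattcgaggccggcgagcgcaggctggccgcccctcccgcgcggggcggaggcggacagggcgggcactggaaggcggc
Rcan1 second start, chr16:92400079-92400328, minus strand: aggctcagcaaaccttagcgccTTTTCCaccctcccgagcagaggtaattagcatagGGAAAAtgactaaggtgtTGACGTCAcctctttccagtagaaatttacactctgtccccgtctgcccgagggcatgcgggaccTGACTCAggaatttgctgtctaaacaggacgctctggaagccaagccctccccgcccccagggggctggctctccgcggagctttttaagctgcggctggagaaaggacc
Dusp1, chr17:26508473-26508722, minus strand: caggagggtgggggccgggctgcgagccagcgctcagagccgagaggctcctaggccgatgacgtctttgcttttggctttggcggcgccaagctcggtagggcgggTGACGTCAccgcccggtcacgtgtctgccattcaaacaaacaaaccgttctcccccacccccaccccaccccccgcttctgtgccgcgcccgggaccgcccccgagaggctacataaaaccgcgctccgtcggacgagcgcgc
Dusp5, chr19:53528895-53529144, plus strand: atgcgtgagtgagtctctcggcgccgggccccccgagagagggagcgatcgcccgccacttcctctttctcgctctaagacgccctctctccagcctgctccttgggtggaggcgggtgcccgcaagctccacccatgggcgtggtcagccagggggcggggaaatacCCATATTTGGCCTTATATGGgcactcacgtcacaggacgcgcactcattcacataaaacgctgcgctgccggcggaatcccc

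Of the 10 genes, 9 had a window in that table, 10 windows in all, and the gene without an entry was Dusp4. TGANTCA was found in 1 of these 10 windows, before the second Rcan1 start at bases -110 to -104, and in 6.75% of all 32851 windows of the same length. TGACGTCA was found in 2 windows, before Dusp1 at -143 to -136 and before the second Rcan1 start at -175 to -168, and in 1.55% of all windows. GGAAAA occurred at 2 places before the second Rcan1 start and at 2 places before Spry2, and in 20.4% of all windows. The CArG box occurred at 2 places, end to end, before Dusp5 (-82 to -73 and -72 to -63) and in 1.47% of all windows. CACGTG (the E-box) was in 3 of the 10 windows and 6.02% of all windows, GGGCGG (the GC box) in 8 and 32.7%, and CCGGAAG (an ETS factor string) in 0 and 6.91%. The 10 windows had a GC content of 56.4 to 70.8%, against a median of 52.4% over all windows. The shares were not adjusted for this difference. No 2 matches overlapped. A match describes letters in the window and is not evidence of binding, and a window without a match says nothing of sites outside it.

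**Figure D1:**
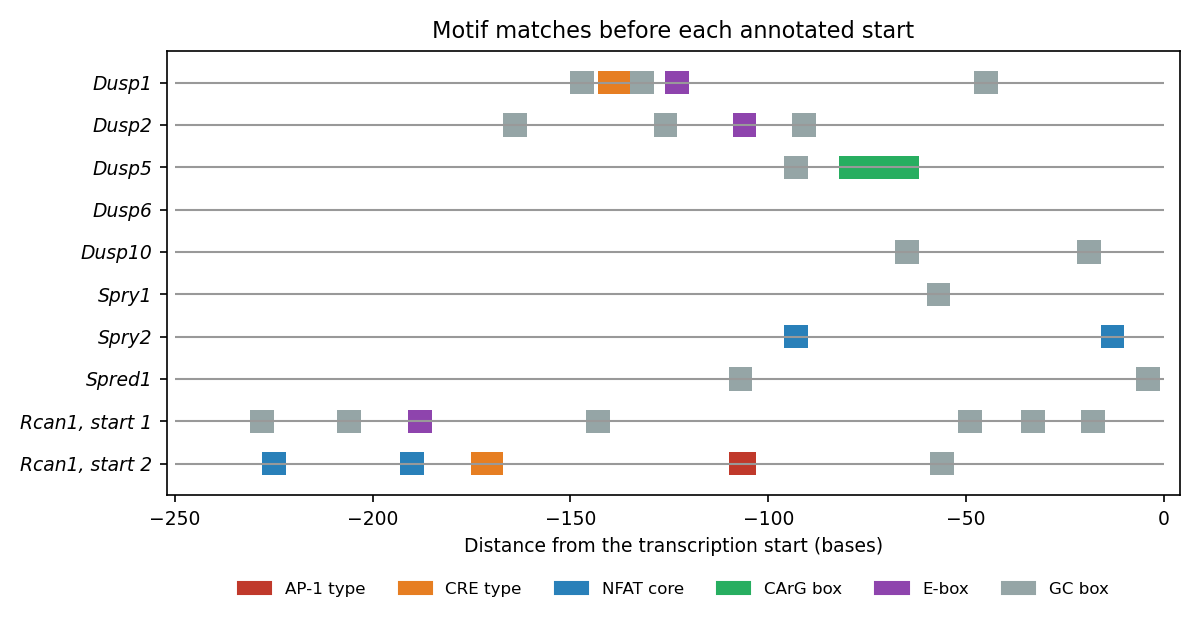
Motif matches in the 250 bases before each annotated start, one row per window, with distance from the transcription start in bases on the horizontal axis; coloured blocks are matches on either strand. The AP-1 type match stands only before the second Rcan1 start, and Dusp5 carries 2 adjoining CArG boxes.

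Among the 10 genes, Dusp4 and Dusp5 were the most abundant messages in these cultures in both genotypes. Levels of different genes are compared as CPM per kb of the longest annotated transcript, since longer transcripts give more fragments. Dusp4, a nuclear phosphatase of ERK and JNK, stood at 129 and 143 CPM per kb in Batf3-/- cells and at 102 and 128 in WT cells. Dusp5, a nuclear phosphatase specific to ERK, stood at 89.2 and 83.2 CPM per kb in Batf3-/- cells and at 64.4 and 79.9 in WT cells. Dusp2, a nuclear phosphatase of activated lymphocytes also known as PAC1, came next at 37.5 and 35.9 in Batf3-/- cells and 28.7 and 27.9 in WT cells. These 3 genes kept their order in every library, and the lowest library of each lay above the highest of the gene below it.

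The other 7 genes were lower. Over the 4 libraries Dusp6, the cytoplasmic ERK phosphatase, averaged 13.4 ± 1.37 CPM per kb, and Dusp10, a phosphatase of JNK and p38, averaged 12.9 ± 1.37 (SD over 4 libraries of both genotypes); their ranges overlapped. Spred1 averaged 8.23 ± 0.857, Dusp1 6.90 ± 0.995 and Spry1 5.60 ± 0.603 CPM per kb. The ranges of Spred1 and Dusp1 overlapped, as did those of Dusp1 and Spry1, while the lowest Spred1 library (7.28) lay above the highest Spry1 library (6.32). Rcan1 averaged 2.91 ± 0.630 CPM per kb. Spry2 was close to the detection limit at 0.302 ± 0.0816 CPM per kb, so of the 2 Sprouty genes Spry1 was the more abundant. Of the summed per-kb level of the 10 classical MAP kinase phosphatase genes (these 6 with Dusp7, Dusp8, Dusp9 and Dusp16), Dusp4 and Dusp5 together made up 71.4 ± 1.31% in Batf3-/- cells and 70.3 ± 2.70% in WT cells (SD, n = 2 each), a difference smaller than the spread between WT libraries.

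**Figure D2:**
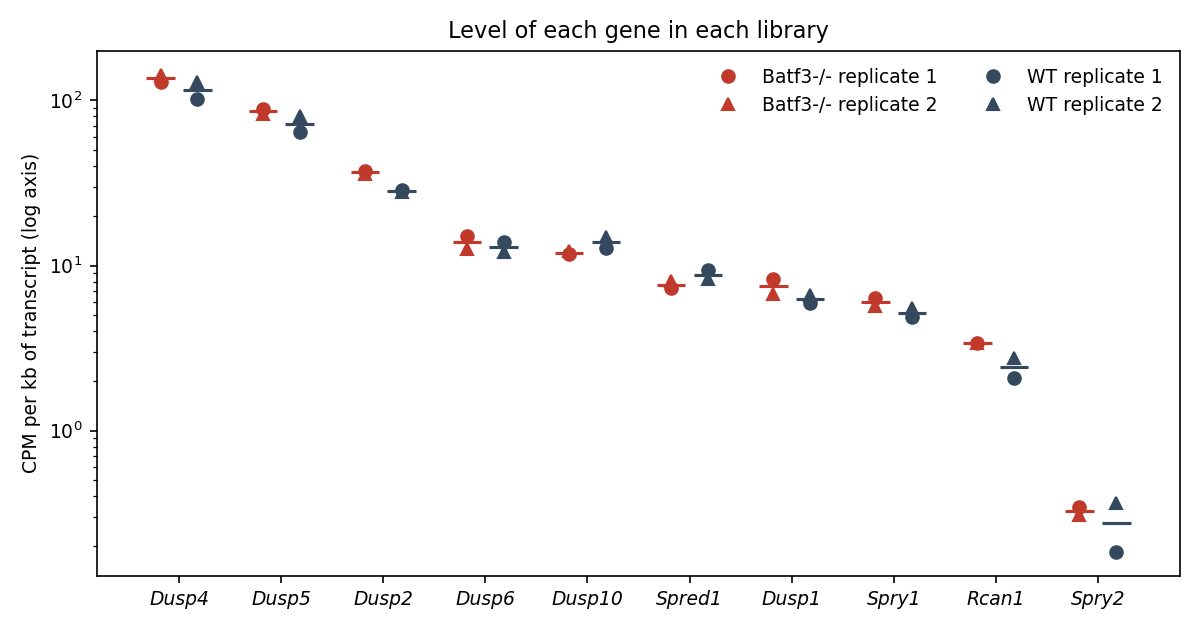
Level of each of the 10 genes in each library, as CPM per kb of transcript on a log axis, with the 2 Batf3-/- libraries left of the 2 WT libraries; horizontal bars are group means. Dusp4 and Dusp5 lead in all 4 libraries and Spry2 lies far below the rest.

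The comparison of Batf3-/- with WT cells asks whether loss of BATF3 alters the RNA of these inhibitors. None of the 10 genes passed the test, and all 10 had enough counts to be tested. In edgeR's quasi-likelihood test with adjustment over 12135 genes, 0 of 10 had an adjusted p under 0.05 and 0 of 10 had p under 0.05 before adjustment, where 4.8% of all tested genes did; DESeq2 and limma-voom also gave 0 adjusted calls. Over all tested genes 16 passed, which is 0.132%, with 0.0824% higher and 0.0494% lower in Batf3-/- cells. The log2 fold change (Batf3-/- minus WT) was positive for 8 genes and negative for Dusp10 and Spred1, with a median of 0.24 over the 10 and of -0.01 over all tested genes. The median of the 10 was 0.11 without WT replicate 1 and 0.14 without Batf3-/- replicate 1. It was 0.35 without WT replicate 2 and 0.29 without Batf3-/- replicate 2. Of all tested genes 48.4% had a positive value. In bulk RNA a smaller number of cells expressing a gene and less RNA in each cell cannot be told apart. An exact permutation test of 2 against 2 libraries cannot give a two-sided p below 0.333.

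Libraries of the 2 genotypes did not overlap for 8 of the 10 genes, 6 higher and 2 lower in Batf3-/- cells. Over all tested genes the shares without overlap were 33.8% in either direction, 18.2% higher and 15.6% lower. Fewer genes were separated once each library's trend on transcript GC content, taken up after the single genes, was removed. Then 1 gene was higher without overlap and 1 lower. The shares over all tested genes were then 26.1% in either direction, 13.6% higher and 12.5% lower. Some separations before the correction were narrow, as given under the single genes, and what GC content contributes to them was not tested.

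**Figure D3:**
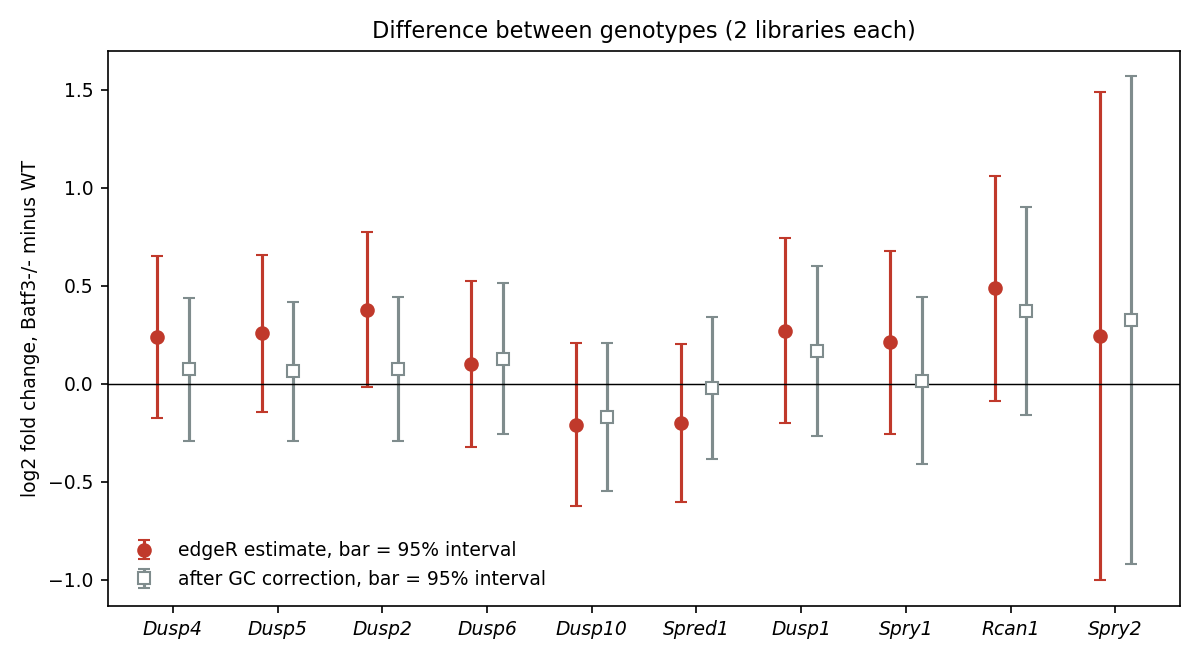
Log2 fold change of each gene, Batf3-/- minus WT, from 2 libraries per genotype; filled circles are the edgeR estimates and open squares the estimates after removal of each library's GC trend, both with 95% intervals. Every interval includes 0, and Spry2 has by far the widest.

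Of the nuclear inducible phosphatases, Dusp2 (ENSMUSG00000027368.6, GRCm38 chr2:127336159-127338376) had the smallest p of the 10 genes. Its level was 60.7 and 58.1 CPM in Batf3-/- cells and 46.3 and 45.1 CPM in WT cells. Both Batf3-/- libraries lay above both WT libraries, and the replicates of each genotype were close to each other. Its log2 fold change was 0.38 (SE 0.188, 95% interval -0.02 to 0.77, unadjusted p = 0.0590, adjusted p = 0.958 in edgeR), a 1.30-fold difference that did not pass. Dusp2 has the highest transcript GC of the 10 genes, 59.2%, and its log2 fold change was 0.08 after the GC correction, with its libraries then overlapping.

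Dusp4 (ENSMUSG00000031530.6, chr8:34807297-34819894) had 352.3 and 392.2 CPM in Batf3-/- cells and 279 and 352.0 CPM in WT cells. Batf3-/- replicate 1 and WT replicate 2 were almost level, so the groups were separated by less than 1 CPM. The means were 372 ± 28.2 CPM in Batf3-/- cells and 315 ± 51.9 CPM in WT cells (SD, n = 2 each), at a log2 fold change of 0.24 with a 95% interval of -0.17 to 0.65 (SE 0.196, edgeR). Dusp5 (ENSMUSG00000034765.6, chr19:53529109-53542431) had 221 and 206 CPM in Batf3-/- cells and 159 and 198 CPM in WT cells. Its genotypes did not overlap, though Batf3-/- replicate 2 and WT replicate 2 lay close together, and the log2 fold change was 0.26 (SE 0.192, 95% interval -0.14 to 0.66). With 3181 to 11195 counts per library for these 2 genes, counting error was small. The intervals reflect mainly the spread between libraries as edgeR estimates it, which pools information over all tested genes and is not the spread of these 2 genes alone. Their upper bounds, 1.57-fold for Dusp4 and 1.58-fold for Dusp5, are the largest increases that the intervals include.

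Dusp1 (ENSMUSG00000024190.6, chr17:26505590-26562128), an immediate early gene for a nuclear phosphatase of p38, JNK and ERK, had 19.2 and 15.6 CPM in Batf3-/- cells and 13.7 and 15.3 CPM in WT cells. Batf3-/- replicate 1 stood apart from the other 3 libraries, which lay within 13.7 to 15.6 CPM. Between the genotypes the log2 fold change came to 0.27, with a 95% interval of -0.20 to 0.74 (SE 0.225, edgeR). Dusp6 (ENSMUSG00000019960.7, chr10:99263231-99267489) had 42.2 and 35.3 CPM in Batf3-/- cells and 38.8 and 33.6 CPM in WT cells. Its libraries overlapped, and replicate 1 was higher than replicate 2 in both genotypes. Its log2 fold change of 0.10 (SE 0.202, edgeR adjusted p = 0.974) was the smallest of the 10 in size, and it was -0.037 without Batf3-/- replicate 1.

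Dusp10 (ENSMUSG00000039384.8, chr1:184013302-184075636) had the opposite sign. Its level was 32.6 and 34.3 CPM in Batf3-/- cells and 35.9 and 41.4 CPM in WT cells. Both Batf3-/- libraries lay below both WT libraries, and they still did after the GC correction. In edgeR its log2 fold change was -0.21, with a 95% interval of -0.63 to 0.21 (SE 0.199, adjusted p = 0.958), and -0.17 after the correction. Dusp10 starts 7.08 Mb from the start of Batf3 on the same chromosome, and it is the only 1 of the 10 genes within 25 Mb of it. In that window 8 of 146 tested genes passed the test, Batf3 included, against 8 of 11989 elsewhere, and the median log2 fold change of the window was -0.03. DUSP genes outside the 10 in the same window were Dusp12, 20.2 Mb from Batf3, at 7.58 and 6.01 CPM in Batf3-/- cells and 6.99 and 4.59 CPM in WT cells, and Dusp23, 18.5 Mb away, at 0.755 and 0.841 CPM in Batf3-/- cells and 1.41 and 1.90 CPM in WT cells. The log2 fold changes of Dusp12 and Dusp23 were 0.25 (SE 0.292) and -1.08 (SE 0.464, unadjusted p = 0.0315), and neither passed in edgeR (adjusted p = 0.958 each).

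Among the inhibitors that act on RAS and RAF, Spry1 (ENSMUSG00000037211.12, chr3:37639947-37644598) had 17.5 and 15.8 CPM in Batf3-/- cells and 13.5 and 15.3 CPM in WT cells. The genotypes did not overlap, but Batf3-/- replicate 2 and WT replicate 2 were less than 1 CPM apart. Spry1 had a log2 fold change of 0.21 with a 95% interval of -0.26 to 0.68 (SE 0.223, edgeR) and of 0.02 after the GC correction. Spry2 (ENSMUSG00000022114.4, chr14:105891947-105896819) had 23 and 10 counts in Batf3-/- cells and 9 and 21 counts in WT cells. In CPM these are 0.724 and 0.647 against 0.386 and 0.765, so the WT libraries lay on either side of the Batf3-/- libraries. Its log2 fold change was 0.24 (SE 0.594, edgeR), and it was -0.15 without WT replicate 1. The 95% interval ran from 0.499-fold to 2.80-fold, and these libraries do not tell apart differences inside that range.

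Spred1 (ENSMUSG00000027351.14, chr2:117121374-117182279), for a membrane-bound relative of Sprouty that recruits the RAS inactivator neurofibromin, had 43.8 and 48.4 CPM in Batf3-/- cells and 56.3 and 49.5 CPM in WT cells. Batf3-/- cells were lower without overlap, with the replicate 2 libraries close together. For Spred1 edgeR gave a log2 fold change of -0.20, SE 0.193, with a 95% interval of -0.60 to 0.20. Spred1 has the lowest transcript GC of the 10 genes, 41.2%, and its log2 fold change was -0.02 after the GC correction.

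Rcan1 (ENSMUSG00000022951.15, chr16:92391953-92470867) had the largest log2 fold change of the 10 genes and, after Spry2, the fewest counts. There were 252 and 122 counts in the Batf3-/- libraries and 113 and 176 in the WT libraries. These are 7.93 and 7.89 CPM in Batf3-/- cells and 4.84 and 6.42 CPM in WT cells. The Batf3-/- libraries were nearly equal and lay above both WT libraries, which differed from each other. The genotypes differed 1.40-fold, a log2 fold change of 0.49 with a 95% interval of -0.09 to 1.06 that did not pass (SE 0.274, unadjusted p = 0.0923, adjusted p = 0.958 in edgeR). It was 0.37 (SE 0.252) after the GC correction, and Rcan1 was then the only gene of the 10 whose Batf3-/- libraries stayed above the WT libraries without overlap. Of all tested genes 10.1% had a log2 fold change at least as large in size as that of Rcan1. The reads of the 2 starts shown for Rcan1 are not separated in the table, so the value cannot be assigned to the form with the AP-1 type and NFAT letters before its start.

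For every gene of the 10 except Dusp10, the difference was larger in size in replicate 1 than in replicate 2. The median log2 ratio of the 10 genes, Batf3-/- over WT, was 0.39 in replicate 1 and 0.05 in replicate 2, against -0.01 and 0.00275 over all tested genes. Of the 10 genes 8 had a positive ratio in replicate 1 and 7 in replicate 2, and 7 were positive and 2 negative in both. The shares of these signs over all tested genes were not counted. Over the 2289 tested genes at 55 to 60% transcript GC, the median ratio was 0.29 in replicate 1 and 0.12 in replicate 2. Dusp2, Dusp4, Dusp5 and Spry1 belong to that range. Dusp2 had nearly the same ratio in both, 0.39 and 0.37. Dusp5 had ratios of 0.47 and 0.06, Dusp1 of 0.48 and 0.03, Spry1 of 0.38 and 0.04 and Rcan1 of 0.71 and 0.30. Spred1 had ratios of -0.36 and -0.03 and Dusp10 of -0.14 and -0.27. Spry2 was the gene with opposite signs, 0.87 and -0.24. For 6 of the 10 genes (Dusp1, Dusp4, Dusp5, Spry1, Spry2 and Rcan1) WT replicate 1 was the lowest of the 4 libraries. How often this held over all tested genes was not counted. The size of every estimate but that of Dusp2 depended on which libraries were included. With WT replicate 1 left out, edgeR gave a log2 fold change of 0.07 for Dusp4, 0.10 for Dusp5, 0.11 for Spry1, 0.29 for Rcan1, -0.12 for Spred1 and -0.32 for Dusp10. Without WT replicate 2 it was 0.42 for Dusp4, 0.42 for Dusp5 and -0.10 for Dusp10. Without Batf3-/- replicate 1 it was 0.11 for Dusp1, 0.13 for Spry1 and -0.13 for Spred1. Dusp2 stayed within 0.35 to 0.41 over the 4 fits that leave out 1 library.

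**Figure D4:**
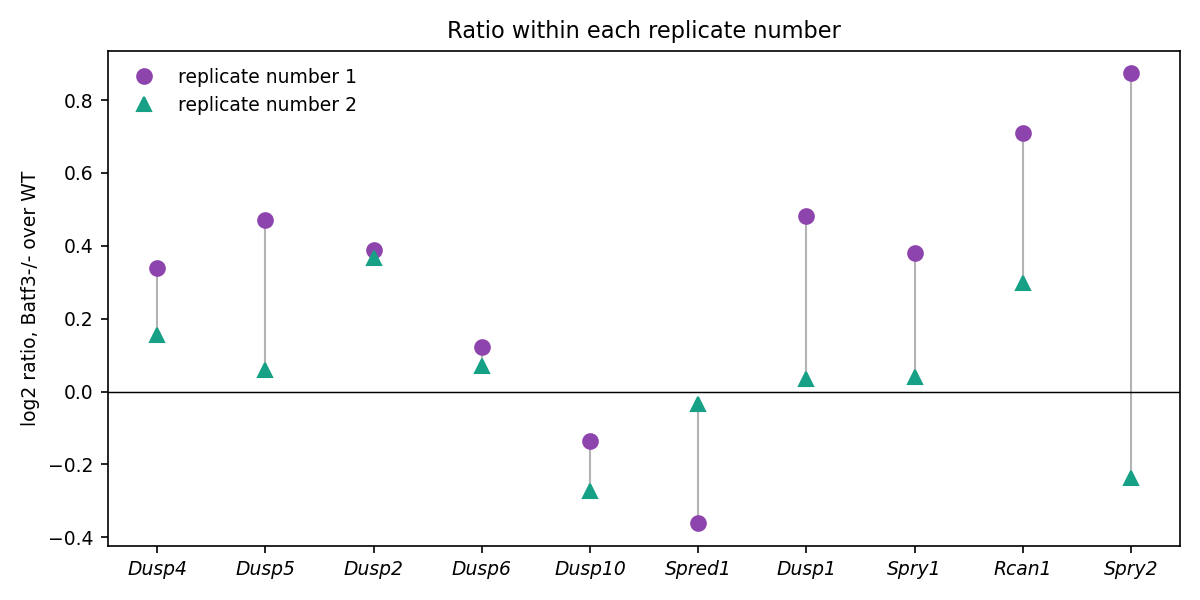
Log2 ratio of Batf3-/- over WT for each gene within replicate number 1 (circles) and replicate number 2 (triangles), joined by a grey line. Dusp2 has about the same ratio in both, while Dusp1, Dusp5 and Spry1 are near 0 in replicate 2. The ratios are without the GC correction.

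Across all tested genes the log2 fold change moved with the GC content of the transcript. Its median was -0.24 over 707 genes under 40% GC, -0.17 over 2432 genes at 40 to 45%, -0.07 over 3060 genes at 45 to 50%, 0.05 over 3123 genes at 50 to 55%, 0.20 over 2289 genes at 55 to 60% and 0.36 over 494 genes from 60% upwards. The 10 genes had a median transcript GC of 54.2%, against 49.8% for all tested genes. Dusp2, Dusp4, Dusp5 and Spry1 fell in the 55 to 60% range, and their log2 fold changes of 0.21 to 0.38 lay above its median of 0.20. Spry1, Dusp4 and Dusp5 were among the middle 50% of the genes of that range and Dusp2 was above them. Spred1 was at -0.20 in a range with a median of -0.17. Rcan1, Dusp1, Dusp6 and Spry2 lay above and Dusp10 below the middle 50% of the genes in their ranges. With each library's GC trend removed, the median of the 10 genes was 0.08 and that of all tested genes -0.01, 8 of the 10 were positive, where 47.5% of all tested genes were, and 0 passed in edgeR, where 0.0989% of all tested genes did. The corrected values were 0.08 for Dusp2, 0.07 for Dusp4, 0.06 for Dusp5, 0.02 for Spry1 and -0.02 for Spred1, each closer to 0 than before. Those of Dusp1, Rcan1 and Dusp10 were also closer to 0, at 0.17, 0.37 and -0.17, while those of Dusp6 and Spry2 were farther from 0, at 0.13 and 0.32. What sets the GC trend between libraries was not tested.

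**Figure D5:**
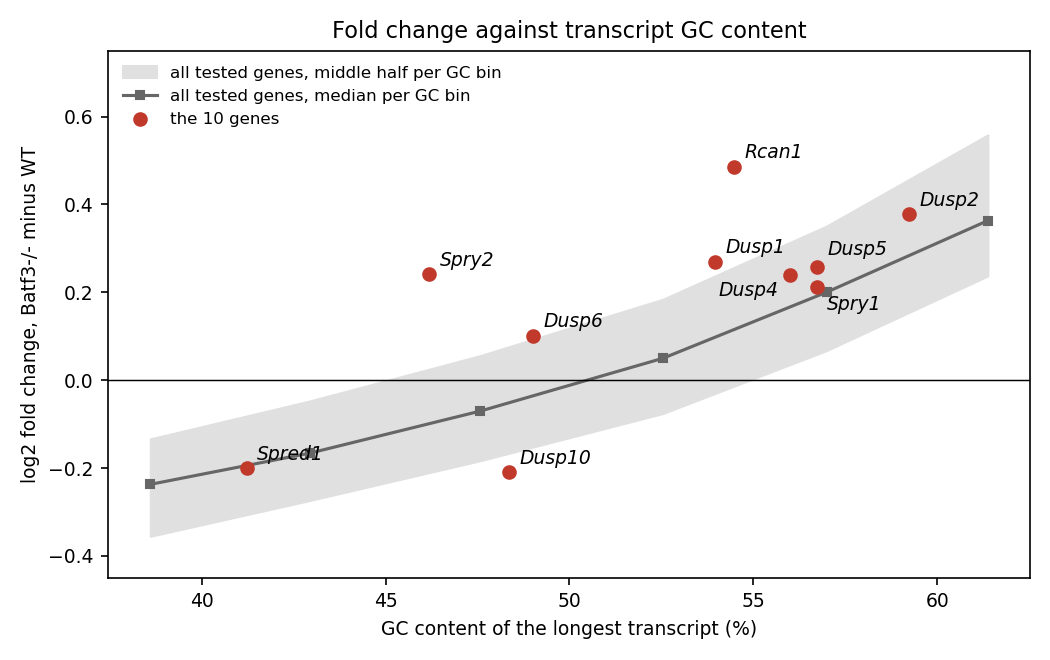
Log2 fold change (Batf3-/- minus WT) against the GC content of the longest transcript in percent, for the 10 genes (red, named) and for all tested genes (grey line, the median per GC range; grey band, the middle 50% of genes). Spry1, Dusp5, Dusp4 and Spred1 lie in the band, and Rcan1 lies well above it. The band is drawn through the middle of each range, so Dusp2, near the top of its range, also falls inside it.

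Of the closest relatives of these genes 17 were tested, and 0 passed in edgeR. The other 4 classical MAP kinase phosphatases had 4 of 4 positive values with a median of 0.12, which was 0.00390 after the GC correction. Among them Dusp7, a cytoplasmic ERK phosphatase, had 39.0 and 37.5 CPM in Batf3-/- cells and 31.3 and 39.3 CPM in WT cells, and Dusp8 was low at 1.38 and 1.29 CPM in Batf3-/- cells and 1.03 and 0.802 CPM in WT cells. Of the atypical dual specificity phosphatases 10 of 13 were tested, 5 positive and 5 negative with a median of -0.09, and Dusp28 had 70 and 25 counts in Batf3-/- cells and 35 and 21 counts in WT cells. Of the other Sprouty and Spred genes 3 were tested, with a median of 0.14. Spred3 stood at 20.4 and 20.3 CPM in Batf3-/- cells and 18.1 and 13.6 CPM in WT cells. Spry4 had 30 and 4 counts in Batf3-/- cells and 37 and 29 in WT cells, where edgeR's log2 fold change was -0.91 with an SE of 0.540.

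Of the genes of the cascades that these proteins restrain, 0 passed in either direction in edgeR. Of 18 tested genes of the RAS to ERK cascade 8 were positive (median -0.03), and Map2k2, the kinase MEK2, stood at a log2 fold change of 0.33 (SE 0.198) and Rasgrp4, a RAS activator, at 0.32 (SE 0.191). Of 15 tested JNK and p38 cascade genes 7 were positive (median -0.02), with the p38 substrate kinase gene Mapkapk2 at 0.42 (SE 0.205) and the kinase gene Map3k7 at -0.28 (SE 0.182). Of 13 tested calcineurin and NFAT genes 3 were positive (median -0.05), with Nfat5 at -0.28 and the calcineurin subunit gene Ppp3cb at -0.22. Of 17 tested inhibitors of T cell receptor signalling 9 were positive (median 0.02), with the adaptor gene Pag1 at -0.39 and the kinase gene Csk at 0.24. After the GC correction the log2 fold changes were 0.00369 for Map2k2, 0.14 for Rasgrp4, 0.20 for Mapkapk2 and -0.17 for Map3k7. For Nfat5, Ppp3cb, Pag1 and Csk they were -0.13, -0.000431, -0.33 and -0.09.

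The ERK response genes and the RAS inactivators were also counted. Of 23 tested ERK response genes 18 were positive, with a median of 0.17, which was 0.45 in replicate 1, 0.03 in replicate 2 and 0.08 after the GC correction; 0 passed in edgeR, and before adjustment 3 had p under 0.05, where 4.8% of all tested genes did. Junb, an AP-1 subunit induced by ERK and other signals, had 854 and 747 CPM in Batf3-/- cells and 315 and 527 CPM in WT cells. Its log2 fold change was 0.93 (SE 0.230) with an adjusted p of 0.252 in edgeR, and 0.53 after the GC correction. The log2 ratio of Junb was 1.44 in replicate 1 and 0.50 in replicate 2. Ier5l, a relative of the immediate early gene Ier5, had 6.04 and 8.21 CPM in Batf3-/- cells and 3.90 and 4.16 CPM in WT cells. Of 14 tested RAS GTPase activators and RAF or ERK pathway inhibitors 8 were positive, with a median of 0.13, which was -0.02 after the GC correction. Erf, an ETS-domain repressor that ERK phosphorylates and moves out of the nucleus, had 40.5 and 37.9 CPM in Batf3-/- cells and 15.1 and 22.4 CPM in WT cells. For Erf the log2 fold change in edgeR, 1.06 with an SE of 0.223 and an adjusted p of 0.0735, missed the threshold and was 0.77 (adjusted p = 0.305) after the GC correction. Dok2, an adaptor that recruits a RAS inactivator, had 78.9 and 66.5 CPM in Batf3-/- cells and 45.8 and 42.0 CPM in WT cells. Its log2 fold change was 0.73 (SE 0.192) with an adjusted p of 0.294 in edgeR, and 0.49 after the GC correction.

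The member whose level varied most over the 4 libraries was Spry2, the gene with the fewest counts, with a root mean square deviation of 0.377 log2 units from its mean. Among 7458 well expressed genes (mean log2 CPM of at least 4), the 3 with the most similar values over the 4 libraries were Penk, Ftsj3 and Cenpb, at root mean square distances of 0.0346, 0.0550 and 0.0580 log2 units. Penk, the proenkephalin gene, had 58.0 and 52.1 CPM in Batf3-/- cells and 31.6 and 64.7 CPM in WT cells, the same low value in WT replicate 1 and high value in WT replicate 2 as Spry2. This likeness rests on 4 libraries and on 9 to 23 counts of Spry2 in each.

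All 10 genes had whole-number estimated counts in every library, so no fractions of reads shared with other loci show in their values. Dusp1, Dusp5, Dusp10, Spry1 and Rcan1 overlap annotated genes on the opposite strand. The sources used here do not give the strand setting of the counting, so reads from such partners cannot be told apart from those of these 5 genes. On its own strand Dusp1 also overlaps AC122252.1 (sense intronic, 1853 bases) and the processed pseudogene AC122252.4 (227 bases), which strand does not separate.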

How the data were processed

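RNA sequencing of 4 libraries of mouse CD4+ T cells, 2 Batf3-/- and 2 WT, was analysed. The authors deposited RSEM expected counts per gene, estimates that need not be whole. STAR 2.5.0, RSEM 1.2.25 and build GRCm38 are named in the submitters' processing notes; the sources used here do not give the annotation release or the strand setting. The 92 spike-in entries summed to 0 and were left out. Counts were rounded and fitted in R 4.3.3 with edgeR 4.0.16 (filterByExpr, minimum count 10 and minimum total 15; TMM factors 0.982 to 1.02; glmQLFit, robust; Benjamini-Hochberg at 0.05; genotype as the only term), with a common biological coefficient of variation of 0.171. The table gives 25509 genes, 12135 tested. Replicates differed beyond sampling noise (chi-square per degree of freedom 22.8 in Batf3-/- and 63.0 in WT). Levels are TMM-normalized CPM, ratios within a replicate number use a prior count of 0.5, and floors and depths cover counting error only. Transcript length, GC content and positions came from GENCODE M21 (12105 of 12135 tested genes matched) and promoters from RefSeq. The GC correction took each library's lowess trend (span 0.3) on transcript GC of log2 CPM (prior count 2), centred per gene, as an offset of the fit. DESeq2 1.42.0, limma 3.58.1 (voom), other scalings and filters, leaving out each library and the replicate number as a term were the alternatives. The pipeline was tested on simulated counts. The genes, lists and tests were chosen with earlier results of these data known. From each list, up to 2 genes with the smallest p are named, besides the 10 genes and relatives on chromosome 1 near Batf3.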

Additional observations from a re-analysis of the deposited data

How the results depend on the processing

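Of the 10 genes 0 passed under each of 14 other settings. Before adjustment, edgeR gave p under 0.05 for 1 with upper-quartile scaling and 1 with the replicate block. The shares over all tested genes were not counted in those fits, so these counts are not read as a result about the 10 genes. The median log2 fold change of the 10 genes ranged from 0.08 (GC correction) to 0.35 (without WT replicate 2), against 0.24. Of 139 single-gene values 137 kept their sign and their side of the threshold. The exceptions came from leaving out 1 library: over those 4 fits Spry2 ranged from -0.15 to 0.84, negative without WT replicate 1, and Dusp6 from -0.037 to 0.23, negative without Batf3-/- replicate 1. Over all genes the count of 16 was 29 in DESeq2, 62 without WT replicate 1, 553 without WT replicate 2, 18 without Batf3-/- replicate 1 and 38 without Batf3-/- replicate 2; the cause was not tested. With the replicate number as a block (replicate block) the count was 112, and 88 with the GC correction added, with 0 of the 10 genes among them; library titles share a prefix within each number, but the labels do not say what it marks, and deviations of same-numbered libraries correlated at 0.105 over tested genes. The summed level of the 10 genes was 806 CPM in Batf3-/- and 702 CPM in WT cells, and with the GC correction 763 CPM in Batf3-/- and 732 CPM in WT cells. At 1 CPM in 2 libraries Spry2 was not tested. Low counts limit Spry2 most.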
